A study of Mus musculus with 1479 samples.

Results

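The 10 genes described here encode transcription factors of the mesenchyme that builds the bladder, kidney and genital tract: the T-box factors Tbx2, Tbx3 and Tbx18, the odd-skipped zinc finger factors Osr1 and Osr2, the basic helix-loop-helix factors Tcf21, Twist1 and Twist2, and the homeobox factors Prrx1 and Meis1. They were chosen by name, and all 10 were found among the 46517 gene rows of the count table, of which 29351 held at least 1 read. The table is the urinary bladder part of a study of several mouse organs, cell by cell, that asked how fibroblasts differ among themselves and from vascular mural cells, the pericytes and smooth muscle cells that wrap blood vessels. It holds 1479 cells, each sequenced on its own with Smart-seq2, a method that copies whole transcripts and carries no molecular identifiers. The labels give each cell a plate, a mouse line and 1 of 11 cluster numbers, set by the authors from these very counts. Differences between clusters below therefore tell how far a gene's level repeats over mouse lines, and they are no independent evidence for the clusters.

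All mice were untreated adult males of 10 to 20 weeks. PdgfrbGFP (810 cells) carries a green reporter transgene under Pdgfrb sequences, PdgfraGFP (147 cells) a nuclear green reporter placed in the Pdgfra gene, Cspg4dsRED (203 cells) a red reporter under Cspg4 sequences, and Acta2GFP (129 cells) a green reporter under Acta2 sequences. C57BL6 mice (190 cells) carry no reporter. Cells were taken by the fluorescence of a reporter or by antibody, and reporter protein need not follow the present use of its gene. Cells with the endothelial antigen CD31 were gated out, so the share of a cluster in a line depends on the sort. The labels name no animal, and some plates held cells of more than 1 line, so p-values measure the spread between lines, whose independence is an assumption. Total reads per cell ran from 50276 to 1446059 with a median of 214893, and cluster 10 was shallower than the pooled fibroblast clusters, though not than clusters 2 and 4, with median endogenous reads of 128369 and 222572 among the cells used for shares.

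In the embryo the loose mesenchyme around the urogenital sinus and the ureter becomes the smooth muscle and the connective tissue of the wall, under signals from the epithelium. Osr1 is needed for intermediate mesoderm and for bladder and kidney formation, and Tbx2, Tbx3 and Tbx18 act in the mesenchyme of the ureter. Tcf21, Twist1, Twist2, Prrx1 and Meis1 serve in mesenchyme of many organs, and several remain on in fibroblasts of the adult.

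In GRCm38 (GENCODE M21) all members are annotated as protein-coding. Of the T-box genes, Tbx2 (ENSMUSG00000000093) lies at chr11:85832551-85841948 on the plus strand, Tbx3 (ENSMUSG00000018604) lies at chr5:119670669-119684724 on the plus strand and Tbx18 (ENSMUSG00000032419) lies at chr9:87702800-87731260 on the minus strand. Of the odd-skipped genes, Osr1 (ENSMUSG00000048387) lies at chr12:9570116-9581500 on the plus strand and Osr2 (ENSMUSG00000022330) lies at chr15:35296098-35303305 on the plus strand. Of the helix-loop-helix genes, Tcf21 (ENSMUSG00000045680) lies at chr10:22817281-22820174 on the minus strand, Twist1 (ENSMUSG00000035799) lies at chr12:33957671-33959829 on the plus strand and Twist2 (ENSMUSG00000007805) lies at chr1:91801461-91848028 on the plus strand. Of the homeobox genes, Prrx1 (ENSMUSG00000026586) lies at chr1:163245119-163313710 on the minus strand and Meis1 (ENSMUSG00000020160) lies at chr11:18879817-19018985 on the minus strand. Over all 1479 cells, Tcf21 had 233935 reads in 1356 cells and Osr1 173549 in 1276. At the other end, Osr2 had 2407 reads in 90 cells, and the members in between were read in 206 (Twist1) to 967 (Meis1) cells.

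Tbx2 and Tbx3, Osr1 and Osr2, and Twist1 and Twist2 are paralogs, and their most similar coding stretches are printed because the counts of such a pair can be trusted only as far as reads can tell the genes apart. Each stretch is on the plus strand of GRCm38 (GENCODE M21), lies within coding exons, and runs 5′ to 3′ with capitals at the bases that differ within the pair. The Tbx2 stretch is chr11:85833363-85833501 and the Tbx3 stretch chr5:119672266-119672404 (139 bases, 29 of which differ).
Tbx2: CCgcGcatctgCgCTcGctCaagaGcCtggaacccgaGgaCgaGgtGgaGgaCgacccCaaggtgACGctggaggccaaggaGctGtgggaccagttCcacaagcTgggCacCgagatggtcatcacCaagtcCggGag
Tbx3: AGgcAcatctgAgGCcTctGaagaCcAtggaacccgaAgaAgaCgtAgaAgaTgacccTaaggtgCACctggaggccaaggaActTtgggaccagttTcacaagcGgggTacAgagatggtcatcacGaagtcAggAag
The Osr1 stretch is chr12:9579671-9579793 and the Osr2 stretch chr15:35300833-35300955 (123 bases, 24 of which differ).
Osr1: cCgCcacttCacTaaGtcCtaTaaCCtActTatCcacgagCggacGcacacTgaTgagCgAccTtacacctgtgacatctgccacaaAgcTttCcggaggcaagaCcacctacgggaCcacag
Osr2: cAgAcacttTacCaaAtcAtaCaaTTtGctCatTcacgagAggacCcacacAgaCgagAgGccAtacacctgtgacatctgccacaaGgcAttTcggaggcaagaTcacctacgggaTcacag
The Twist1 stretch is chr12:33958316-33958465 and the Twist2 stretch chr1:91801827-91801976 (150 bases, 17 of which differ).
Twist1: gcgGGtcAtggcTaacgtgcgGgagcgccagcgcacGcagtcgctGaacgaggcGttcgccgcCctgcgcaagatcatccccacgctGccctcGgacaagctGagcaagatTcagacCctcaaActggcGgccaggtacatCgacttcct
Twist2: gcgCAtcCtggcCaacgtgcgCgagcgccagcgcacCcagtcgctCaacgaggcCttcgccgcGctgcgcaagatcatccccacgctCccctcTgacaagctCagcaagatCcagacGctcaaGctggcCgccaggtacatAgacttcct
The longest run of bases shared in these stretches was 14 for Tbx2 and Tbx3 and 23 for both other pairs. Reads were 50 bases long, and neither these pairs nor Tbx18 with Tbx2 or Tbx3, nor Tcf21 with Twist1, shared a window of 50 transcript bases. Other pairs of members were not compared. The Twist2 stretch lies within the span of the antisense gene Gm29100 (chr1:91798528-91802937), which shares 1477 bases with Twist2. Tcf21 lies wholly within the span of the antisense gene Gm10824 (2894 bases shared), and Tbx3, Tbx18, Osr1, Prrx1 and Meis1 also overlap annotated genes on the other strand. Twist2, Prrx1 and Meis1 hold further genes on their own strand. The strand setting of the counting is not given in the sources used here, so reads of the genes in such an overlap cannot be told apart. Over all cells, the genes on the other strand had from 12 reads (over Osr1) to 16611 (Gm29100). Gm10824 was not among the gene rows.

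Each cell's counts were scaled to 500000 endogenous reads. A level below is the mean over the cells of 1 mouse line, and a cluster's level is the mean of such line values with their SD, for lines with at least 3 cells. Per kilobase of exon, Osr1 and Tcf21 stood far above the other members in the fibroblast clusters other than 5, at 122.5 and 103.5 reads per 500000. Twist2 followed at 12.85, and the remaining 7 members lay between 0.583 (Tbx2) and 4.96 (Meis1). In cluster 10 the order was another one, with Tbx2 first at 15.7, Tcf21 at 9.785, Prrx1 at 9.48 and Tbx3 at 7.69 per kilobase. The line values behind this order spread widely (Tbx2 56.9 ± 55.9 and Prrx1 104.9 ± 62.5 reads per 500000, SD, n = 4), so neighbours in it are not told apart. The dot plot of members by cluster shows levels that are not divided by exon length, and there Prrx1 stands above Tbx2 in cluster 10.

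**Figure D1:**
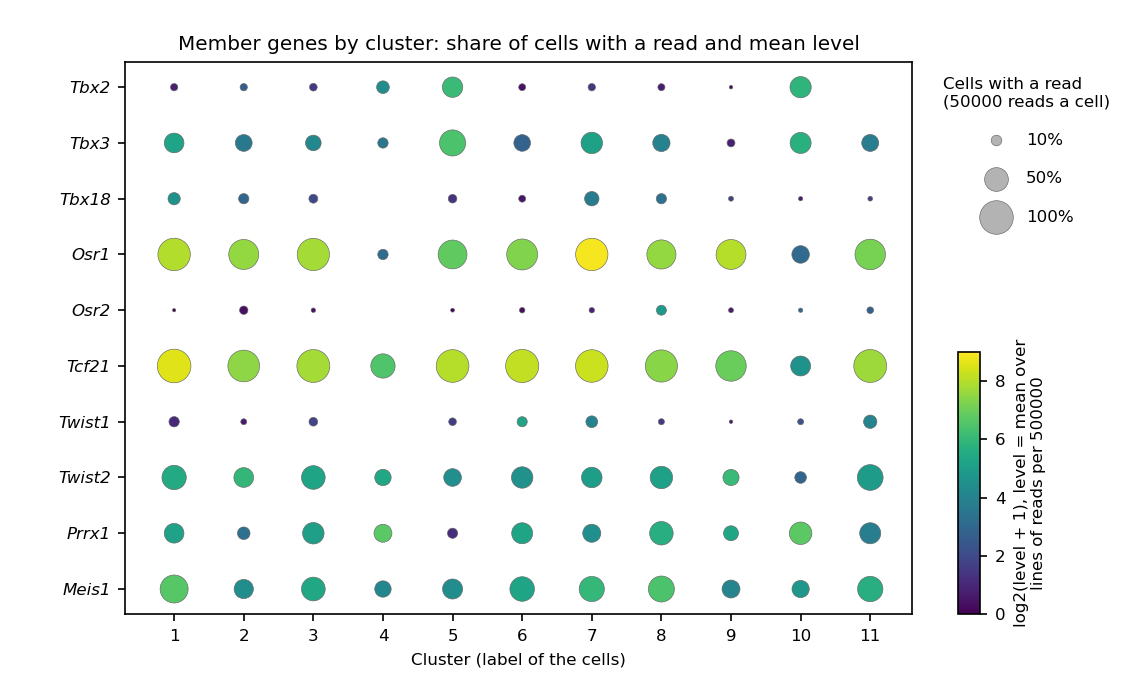
Levels of the 10 members (rows) in clusters 1 to 11 (columns). Dot area gives the percent of cells with at least 1 read after every cell was thinned to 50000 reads, and colour gives the mean level over lines as log2(reads per 500000 + 1). Osr1 and Tcf21 are strong in every fibroblast cluster except cluster 4 for Osr1, and cluster 10 is weak for both but stronger for Tbx2.

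Cluster 10 held 125 cells and is the one the study calls mural. The 8 mural markers (Acta2, Myh11, Tagln, Mcam, Notch3, Rgs5, Cspg4 and Des) summed to a mean of 11580 reads per 500000 in its cells against 136.5 in the fibroblast clusters 1 to 9 and 11, with line means of 7623 to 12760 against 93.9 to 169.6. The 7 fibroblast markers (Col1a1, Col1a2, Pdgfra, Lum, Dcn, Fbln1 and Cd34) summed to 973.6 against 16230, with all 7 above 1 in cluster 10 and Pdgfra lowest at 6.11. Fibroblast RNA was thus low but not at 0 in the mural cells, and its part in the low levels of members there was not tested. The 4 endothelial markers (Pecam1, Cdh5, Kdr and Emcn) summed to 22.4 over the cells of cluster 10 against 15.6 in fibroblasts, with Cdh5 at 0.382. Their line means were 12.1 to 226.2 against 7.97 to 19.98, and the highest was that of the 3 C57BL6 cells. The part of these markers was not tested either.

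Osr1 and Tcf21 fell in cluster 10 against the fibroblast clusters, by 36.8-fold and 13.4-fold, in all 4 lines that had both classes. The other 8 members did not pass the test. Of 10 members tested, 2 were called at an adjusted p under 0.05 and a log2 fold change of at least 2 in size, where 6.2% of all 16092 genes were called, 2.17% as higher and 4.02% as lower. At an unadjusted p under 0.05 there were 5 members (22.1% of all genes). The median log2 fold change was -1.80 over the members and -0.93 over all genes, a shift of all genes that remained after TMM scaling.

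**Figure D2:**
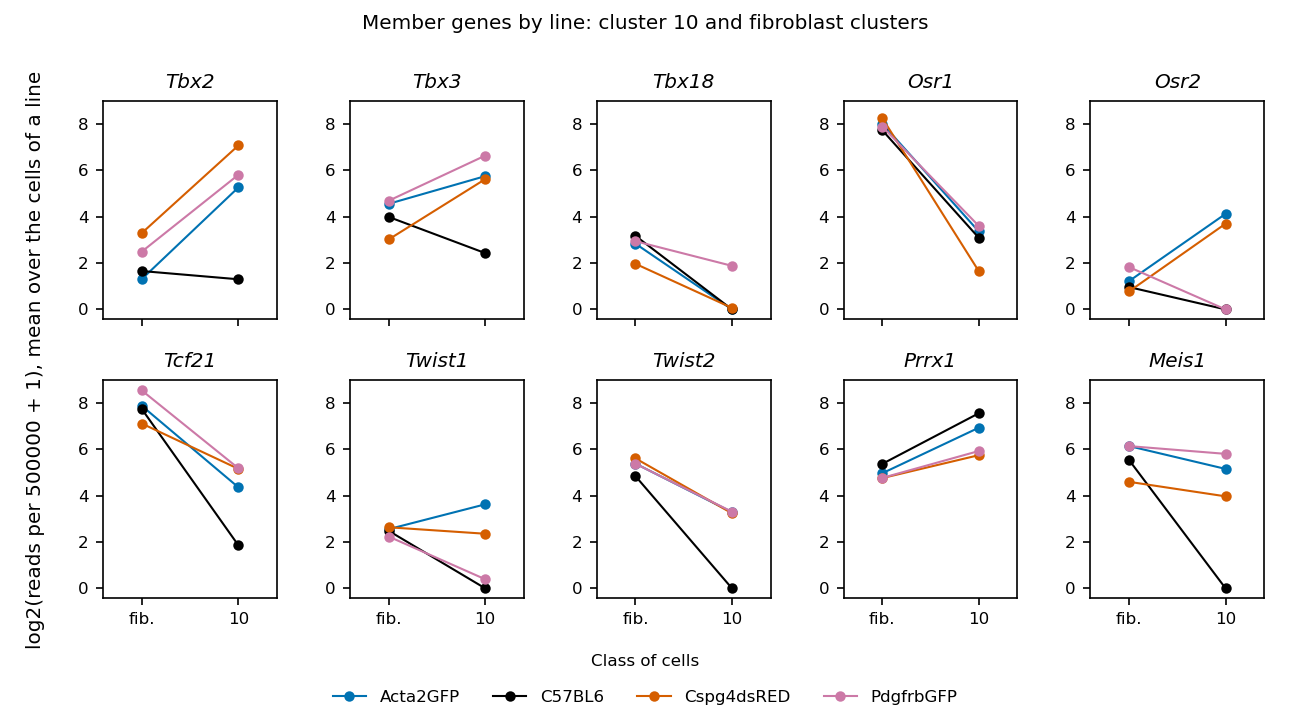
Line means of each member as log2(reads per 500000 + 1) in the fibroblast clusters and in cluster 10, with a line joining the values of 1 mouse line (Acta2GFP 12 mural cells, C57BL6 3, Cspg4dsRED 65, PdgfrbGFP 45). The Osr1 and Tcf21 lines all drop, while the C57BL6 line runs against the other 3 for Tbx2 and Tbx3.

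Among the odd-skipped factors, Osr1 averaged 9.28 reads per 500000 in Acta2GFP, 7.51 in C57BL6, 2.14 in Cspg4dsRED and 11.1 in PdgfrbGFP cells of cluster 10, and 258.3, 211.9, 305.1 and 235.9 in the fibroblasts of these lines. Every mural value was far below every fibroblast value. The log2 fold change was -5.20 (SE 0.73, adjusted p = 8.61e-05 by edgeR), which is -4.27 once the median gene is set to 0, and Osr1 was called in 14 of 14 alternative fits. Of these, the fit with at least 10 cells per sum and the fit without C57BL6 use the same sums and count as 2 here and for the other members. On the 3 PdgfrbGFP plates the mural level was 32.55 in 4 cells, 1.48 in 21 cells and 16.98 in 20 cells. These plates also differed in detection, with an Osr1 read in 4 of 4, 5 of 21 and 20 of 20 mural cells, and the reason was not tested.

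Osr2, which patterns the palate and limb joints, rested on 144 reads in 2 mural cells, 1 from Acta2GFP and 1 from Cspg4dsRED. Its line levels in cluster 10 were 16.4, 0, 11.99 and 0 against 1.33, 0.951, 0.712 and 2.55 in the fibroblasts (log2 fold change 0.24, SE 2.78, adjusted p = 0.979). Nothing can be read from so few cells.

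Tcf21, a factor of visceral mesoderm that marks fibroblasts in heart, lung and kidney, averaged 19.5 in Acta2GFP, 2.62 in C57BL6, 34.6 in Cspg4dsRED and 35.2 in PdgfrbGFP cells of cluster 10. The fibroblasts of the same lines had 233.2, 211.9, 137.0 and 370.0. The classes did not overlap, and the log2 fold change was -3.75 (SE 0.75, adjusted p = 0.00364), and -2.81 after the shift of all genes is taken off, again called in 14 of 14 alternatives. Thinned to 50000 reads, 35.2% of mural cells (44 of 125) still held a Tcf21 read, but 10.4% held at least 10, against 75.96% of fibroblasts.

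Twist2 and Twist1 restrain differentiation in mesoderm and dermis. Twist2 had line levels of 8.74, 0, 8.43 and 8.88 in cluster 10 against 40.7, 27.7, 47.7 and 40.6 (log2 fold change -3.06, SE 1.21, adjusted p = 0.130). All 4 mural values were below all fibroblast values, yet the fit did not pass. Without C57BL6, whose 3 mural cells held no Twist2 read, the adjusted p was 0.0430 with a log2 fold change of -2.44, and with DESeq2 0.00713. Twist1 had mural levels of 11.3, 0, 4.12 and 0.312 that spread around the fibroblast levels of 4.87, 4.59, 5.21 and 3.71 (log2 fold change -1.85, adjusted p = 0.618).

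Tbx2, a repressor of cell cycle inhibitors in the ureteric mesenchyme, averaged 37.4 in Acta2GFP, 1.46 in C57BL6, 133.7 in Cspg4dsRED and 55.03 in PdgfrbGFP cells of cluster 10, and 1.48, 2.15, 8.82 and 4.63 in fibroblasts. It was higher in 3 of 4 lines. The exception was C57BL6, with 1 Tbx2 read in its 3 mural cells. These cells also had the highest endothelial marker sum of the 4 lines, whose part was not tested. The log2 fold change was 3.29 (SE 1.34, adjusted p = 0.143), and without C57BL6 it was 4.12 (SE 0.52, adjusted p = 0.00595). Tbx2 was called in 6 of 14 alternatives, among them DESeq2 (adjusted p = 0.00122) and the fit without the line as a block (0.0333).

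Tbx3, its close relative, followed the same lines, at 52.8, 4.39, 48.1 and 98.4 in cluster 10 against 22.5, 14.9, 7.10 and 24.8 (log2 fold change 1.41, SE 1.16, adjusted p = 0.559). The C57BL6 mural cells were again the low ones, with 3 reads in all. Without that line the log2 fold change was 2.23 (SE 0.46, adjusted p = 0.0364). Tbx18, a T-box repressor used elsewhere as a label of mural cells, went the other way, with 0, 0, 0.0462 and 2.68 in cluster 10 against 6.15, 8.04, 2.91 and 6.69 in fibroblasts. Its classes did not overlap, but the log2 fold change of -4.52 (SE 1.94) had an adjusted p of 0.168. It was called by DESeq2 alone among 14 alternatives (adjusted p = 0.00987).

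Of the homeobox members, Prrx1, best known from limb and face mesenchyme, averaged 120.8, 186.7, 52.6 and 59.7 in cluster 10 against 30.2, 40.3, 26.0 and 26.2 in fibroblasts. Mural cells were above fibroblasts in 4 of 4 lines with no overlap, with a log2 fold change of 1.39 (SE 0.76, adjusted p = 0.310), called in none of the 14 alternatives. Meis1, a partner of Hox and Pbx proteins, had 34.5, 0, 14.7 and 54.8 against 69.4, 45.4, 23.2 and 69.3 (log2 fold change -1.75, SE 1.16, adjusted p = 0.432). Line levels of the classes did not overlap for 5 members (Tbx18, Osr1, Tcf21 and Twist2 lower, Prrx1 higher), and the same held for 19.9% of all genes tested (4.33% higher, 15.6% lower).

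Cluster 5 held 76 fibroblasts that the study places beneath the urothelium. Its 4 markers (Tnc, Bmp5, Bmp7 and Cxcl14) summed to a mean of 2068 reads per 500000 against 84.9 in the other fibroblast clusters. The mural list summed to 627.3 against 107.3, with line means of 435.0 to 750.8 against 63.1 to 169.6. Most of it was Acta2 (484.2) and Myh11 (52.1), and 4 of its 8 genes were below 1 in cluster 5. The part of this muscle gene content in the results below was not tested.

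No member was called in cluster 5 against the other fibroblast clusters by edgeR, where 0.762% of 16145 genes were called. At an unadjusted p under 0.05 there were 5 members against 13.2% of all genes, and DESeq2 called 4 members among 1402 genes and limma-voom 2 among 445. The median log2 fold change was -1.60 over the members and -0.77 over all genes. Line levels of the classes did not overlap for 5 members, Tbx2 and Tbx3 on the high side and Osr1, Osr2 and Prrx1 on the low side, and the same held for 10.7% of all genes (1.9% high, 8.78% low).

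**Figure D3:**
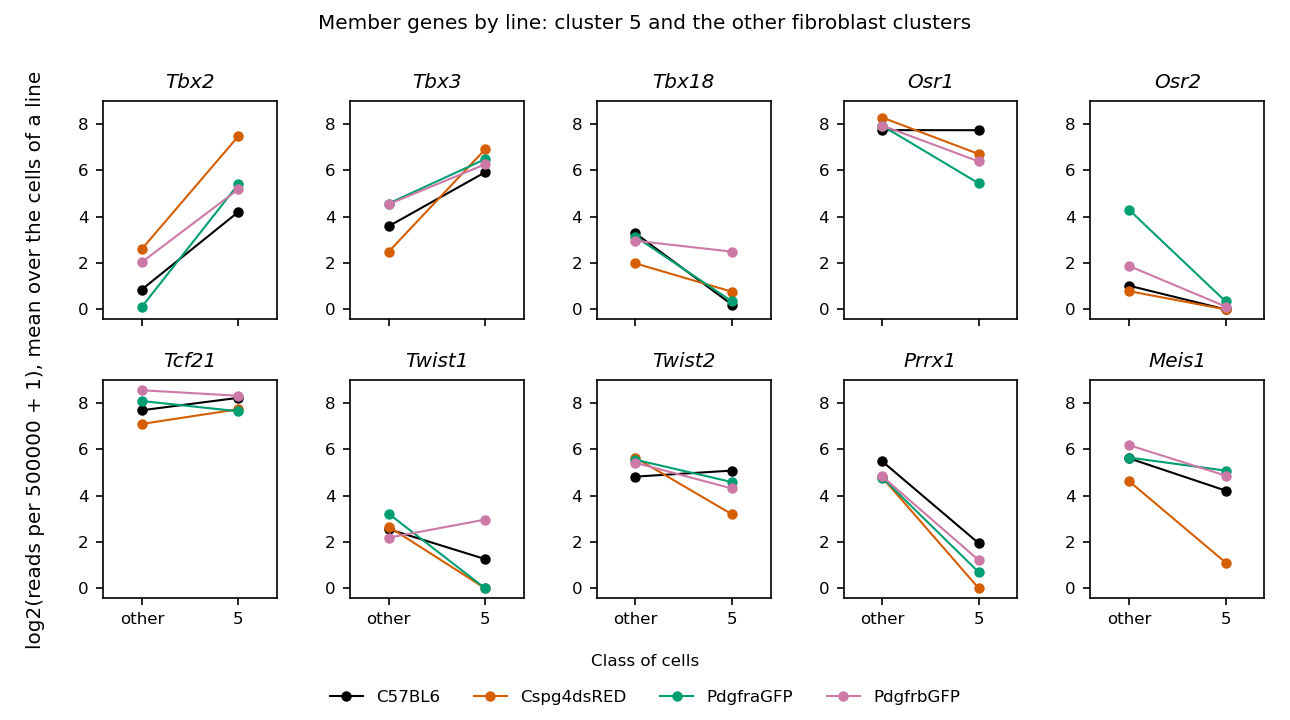
Line means of each member as log2(reads per 500000 + 1) in the other fibroblast clusters and in cluster 5, joined by mouse line (C57BL6 15 cells of cluster 5, Cspg4dsRED 3, PdgfraGFP 22, PdgfrbGFP 36). All 4 lines climb for Tbx2 and Tbx3 and drop for Prrx1, and the Tcf21 lines cross.

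Tbx2 averaged 17.5 (C57BL6), 176.8 (Cspg4dsRED), 41.3 (PdgfraGFP) and 35.4 (PdgfrbGFP) in cluster 5, against 0.814, 5.09, 0.0797 and 3.12 in the other fibroblasts. All 4 lines were above all values of the other class, but the Cspg4dsRED value came from 1 of 3 cells, which held all 153 reads, and 1 C57BL6 cell held 155 of that line's 195. The log2 fold change was 5.15 (SE 1.21, adjusted p = 0.0918). Tbx2 was called in 8 of 13 alternatives, among them the fit without C57BL6 (adjusted p = 0.0332), the fit with no block (0.0437) and DESeq2 (1.82e-06). A Tbx2 read was found in 36.8% of thinned cluster 5 cells (28 of 76, 95% interval 26.06 to 48.69) and in 4.48% of the other fibroblasts (57 of 1272, 3.41 to 5.77).

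Tbx3 averaged 59.5, 119.0, 88.5 and 75.7 in these lines of cluster 5 and 11.0, 4.61, 22.7 and 22.2 in the rest. The classes did not overlap, although all 103 reads of Cspg4dsRED lay in 1 of its 3 cells, with a log2 fold change of 2.36 (SE 0.75, adjusted p = 0.207), and 1 of 13 alternatives, DESeq2, called it. Within cluster 5, 21 of the 28 thinned cells with a Tbx2 read also had a Tbx3 read, where 60.5% of all its cells did. In cluster 10 this was 15 of 50, where 39.2% of all cells had a Tbx3 read. Tbx18 had 0.154, 0.697, 0.271 and 4.62 against 8.73, 2.96, 7.80 and 6.79 (log2 fold change -3.09, SE 1.85, adjusted p = 0.572), and 184 of its 196 reads in cluster 5 came from 1 cell.

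Prrx1 averaged 2.84, 0, 0.616 and 1.31 in cluster 5 against 43.6, 26.6, 26.4 and 27.4 in the other fibroblasts. It was near 0 in all 4 lines, while the highest line value of the series for this gene was 186.7, in the 3 mural cells of C57BL6. The log2 fold change was -5.24 (SE 1.28, adjusted p = 0.11). The gene was called in 7 of 13 alternatives (at least 10 cells per sum and without Cspg4dsRED are here the same fit), among them the fit with no block (adjusted p = 0.0352), the fit without Cspg4dsRED (0.0494) and DESeq2 (1.28e-06). No thinned cell of cluster 5 held 10 Prrx1 reads (0 of 76, which allows a share of up to 3.95%). Meis1 lay lower in 4 of 4 lines without passing, at 17.6, 1.16, 32.8 and 28.1 against 47.9, 23.7, 48.9 and 71.3 (adjusted p = 0.483).

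Neither Osr1 nor Tcf21 passed in cluster 5. Osr1 averaged 211.5 (C57BL6), 103.2 (Cspg4dsRED), 42.3 (PdgfraGFP) and 82.5 (PdgfrbGFP) against 212.0, 309.6, 241.9 and 243.5, so that only C57BL6 was level between the classes (log2 fold change -1.40, SE 0.41, adjusted p = 0.176). Tcf21 was about as high in cluster 5 as elsewhere, at 296.9, 210.8, 198.1 and 315.8 against 204.5, 135.4, 269.5 and 372.7, higher in 2 lines and lower in 2 (log2 fold change 0.16, SE 0.30, adjusted p = 0.907). Its sign turned under other processing, to -0.04 with sums per plate, -0.19 with thinned counts and -0.08 with limma-voom.

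Osr2 had 4 reads in cluster 5, and its line levels there were 0, 0, 0.271 and 0.0900 against 1.03, 0.728, 18.7 and 2.67 (adjusted p = 0.183). Twist2 had 32.8, 8.15, 22.97 and 18.8 against 27.2, 48.6, 45.8 and 41.7 (log2 fold change -1.42, adjusted p = 0.621), with C57BL6 the only line higher in cluster 5. Twist1 had 1.397, 0, 0 and 6.81 against 4.86, 5.32, 8.31 and 3.55 (log2 fold change -3.53, SE 1.95, adjusted p = 0.517). Both Twist genes were lower in cluster 5 in 3 of 4 lines and did not pass.

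Whether a member differed at all among the 10 fibroblast clusters was asked with 1 F test per gene over sums per line and cluster. Tbx2 (adjusted p = 0.000656), Osr2 (0.000521) and Prrx1 (0.0387) passed, 3 of 10 where 6.01% of 15237 genes passed, and 6 members had an unadjusted p under 0.05 (19.5% of all genes). Tbx2 and Osr2 passed in 12 of 12 alternatives and Prrx1 in 8. Prrx1 was lost without C57BL6, PdgfraGFP, PdgfrbGFP or Cspg4dsRED, at adjusted p values of 0.174, 0.241, 0.364 and 0.114 in that order. Osr1 was just outside at 0.0754 and passed in 6 of 12 alternatives.

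**Figure D4:**
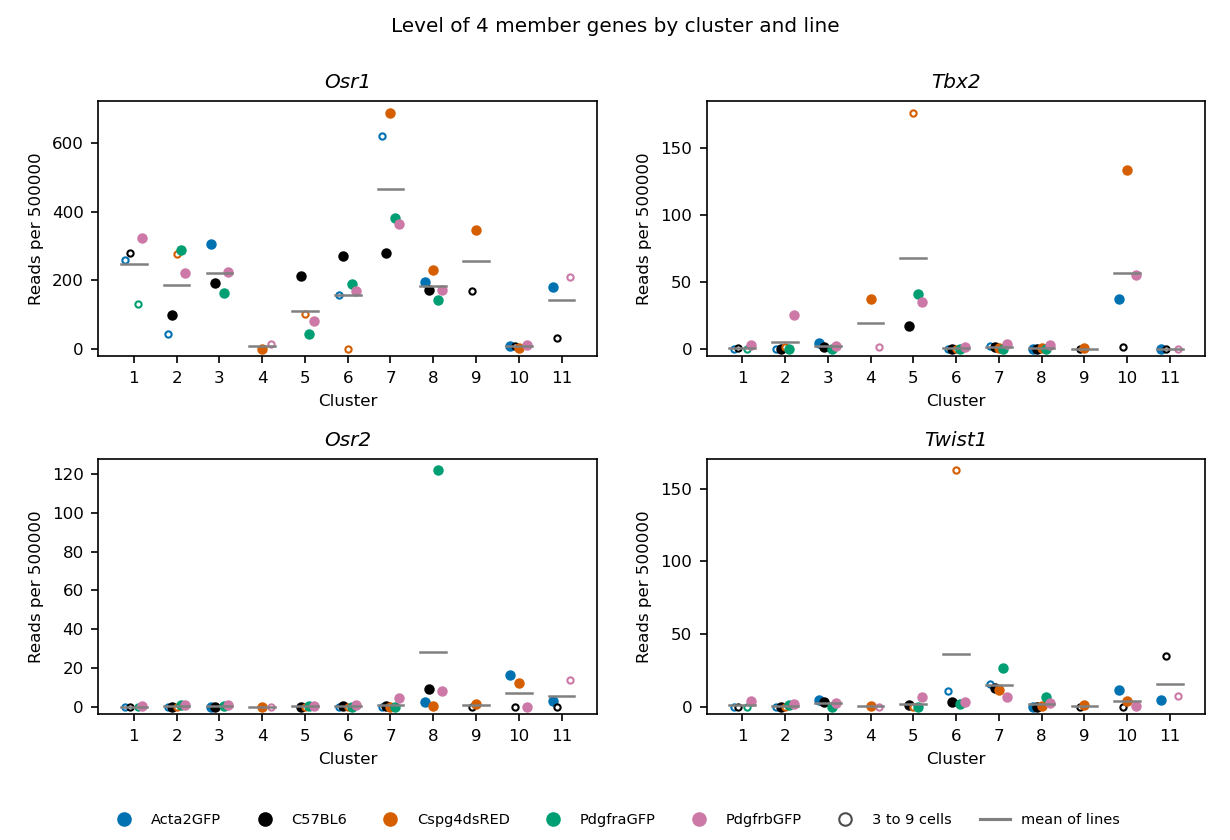
Levels of Osr1, Tbx2, Osr2 and Twist1 in clusters 1 to 11 as reads per 500000 on a linear scale, with 1 point per mouse line and a grey bar at the mean of the lines. Open points stand for groups of 3 to 9 cells. Osr1 is highest in cluster 7 and near the bottom in clusters 4 and 10, and the Osr2 and Twist1 means rest on single high points in clusters 8 and 6.

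Against the remaining fibroblast clusters, with 5 and 10 left out, each other cluster was tested in turn at a log2 fold change of at least 1. The only call of a member by edgeR was Osr1 in cluster 4, where 0.746% of 13664 genes were called. Where no member was called, few genes were called at all, namely 0.0433% in cluster 1, 0.00647% in cluster 2, 0.00608% in cluster 3, 0.0246% in cluster 6, 0.407% in cluster 7, 0.0183% in cluster 8, 0.0454% in cluster 9 and 0.0209% in cluster 11. Osr1 averaged 0.844 in 17 cells of Cspg4dsRED and 14.8 in 4 cells of PdgfrbGFP of cluster 4, against 354.1 and 244.8 in the other clusters of these lines. Both lines were low, with a log2 fold change of -6.61 (SE 0.94, adjusted p = 2.76e-09), but with 2 lines the call fell away without the block (adjusted p = 0.314). Cluster 4 also stood apart in its markers. Its fibroblast list summed to 8094 reads per 500000 against 16070 in the fibroblast clusters other than 5, and Krt19, an epithelial and mesothelial keratin, stood at 106.8 over its cells. This was not shared by its lines, as the 3 mesothelial markers (Msln, Upk3b and Krt19) summed to 0.627 in one and 143.9 in the other. The 5 urothelial markers summed to 1.57 and 5.24. The endothelial gene Cdh5 stood at 28.9, against 0.723 over all fibroblasts outside cluster 5, those of cluster 4 included. The 4 endothelial markers summed to 5.35 and 75.1 in the 2 lines of cluster 4 and to at most 21.45 in a line of those fibroblasts. The 8 mural markers summed to 310.6 over the cells of cluster 4 and to 107.3 over those fibroblasts, with Cspg4 highest in cluster 4 at 203.8. Their line sums were 43.7 and 408.3 in cluster 4 and 63.1 to 169.6 in those fibroblasts. The part of these markers in the Osr1 level was not tested. Tbx18 and Osr2 had no read in any of the 23 cells. After thinning, 0 of 21 cells had a Tbx18 read, a count that permits up to 14.29%, against 8.96% of the fibroblasts outside cluster 5, so a lower level was not detectable at this depth (adjusted p = 0.692).

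Osr1 was highest in cluster 7, at 689.6 (Cspg4dsRED), 622.5 (Acta2GFP), 382.2 (PdgfraGFP), 364.1 (PdgfrbGFP) and 279.2 (C57BL6) against 275.9, 227.9, 195.6, 214.4 and 194.2 in the rest. All 5 lines were higher and the classes did not overlap. The log2 fold change of 0.95 (SE 0.14, adjusted p = 0.0284) was just under the fold required, and the adjusted p rose to between 0.0618 and 0.136 when any 1 line was left out and to 0.276 without the block. RLE size factors and DESeq2 called Osr1 there (log2 fold change 1.04 in both, adjusted p = 0.0444 and 0.00561). Only 0.546% of genes passed in cluster 7 with no fold required. Twist1 was also higher there in 5 of 5 lines, at 14.6 ± 7.6 against 3.31 ± 1.04 (SD, n = 5), without passing (log2 fold change 1.82, SE 0.65, adjusted p = 0.353), though DESeq2 called it (adjusted p = 6.75e-06).

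Osr2 reads lay in few cells, and the part of these cells in its F test was not tested. Cluster 8 had 28.4 ± 52.4 (SD, n = 5) against 0.769 ± 0.653 in the remaining clusters (adjusted p = 0.726), with 122.0 in PdgfraGFP as the highest line. Of all Osr2 reads in the fibroblast clusters other than 5, 62.4% lay in 5 cells, 1 of which, in cluster 7, held 612. Twist1 had an equally narrow base in cluster 6, where 1 of 3 Cspg4dsRED cells lifted that line to 162.7 and the mean to 36.1 ± 70.8 (SD, n = 5).

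The order of clusters by level was mostly not resolved. Between neighbours in that order, the gap was wider than the larger SD of the pair in 4 of 100 steps over the 10 members, namely from cluster 7 to 9 and from 5 to 4 for Osr1, from 7 to 10 for Twist1 and from 5 to 10 for Twist2. Meis1 had its highest means in cluster 1 (97.9 ± 45.4, n = 4) and cluster 8 (86.9 ± 48.6, n = 5), and Tcf21 in cluster 1 (378.0 ± 125.0, n = 4), all within the spread of the clusters that follow.

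Among lines, the fibroblasts outside cluster 5 are compared as values only, since line, sort and in part plate cannot be told apart and the mix of clusters differs between lines. Tcf21 averaged 135.4 in Cspg4dsRED, 204.5 in C57BL6, 233.2 in Acta2GFP, 269.5 in PdgfraGFP and 372.7 in PdgfrbGFP. PdgfrbGFP was the highest line in 5 of the 7 fibroblast clusters that at least 3 lines shared, although its own plates ranged from 240.4 to 481.9. Meis1 was lowest in Cspg4dsRED at 23.7, with the other lines between 47.9 and 71.3, and Tbx3 was lowest there too at 4.61. In this line 85 of 135 such fibroblasts were in cluster 9, where its own cells averaged 31.01 for Meis1 and 1.44 for Tbx3. Within the 4 shared clusters that Cspg4dsRED had, it was the lowest line for Meis1 in 4 and for Tbx3 in 2. Relative to its level, Osr1 varied least among the lines, from 212.0 to 309.6.

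Few of the 10 factors were read at once in a single cell at the thinned depth, which misses reads. In fibroblasts, Meis1 was read in 68.2% of cells before thinning and in 51.1% after. Thinned to 50000 reads, a fibroblast had reads of 4 members in the median and 8 of 1348 had none, whereas a cluster 10 cell had reads of 2 and 14 of 125 had none. Among fibroblasts outside cluster 5, 1033 of the 1088 cells with an Osr1 read also had a Tcf21 read, where 93.5% of all these cells did. In cluster 10 the same held for 26 of 34, where 35.2% of all cells had a Tcf21 read. At 10 reads or more no thinned mural cell held Osr1 (0 of 125, which allows a share of up to 2.4% at this depth), against 63.7% of the fibroblasts of all clusters but 10. Before thinning the shares were 12% and 75.6%. Reads were also set against the number of cluster 10 cells in the same plate row or column, among fibroblasts outside cluster 5 and before thinning. With none, 1 to 4, and 5 or more such cells, median depth fell from 280832 to 193057 and 156048 reads. Over these groups the share with a read was 13.1%, 10.2% and 12.3% for Tbx2, 49.3%, 40.3% and 38.7% for Tbx3, and 56.3%, 50.5% and 60.0% for Prrx1. The part of depth in these shares and carry-over between wells were not tested. Intervals and such limits cover counting error only, as reads are not independent molecules here.

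**Figure D5:**
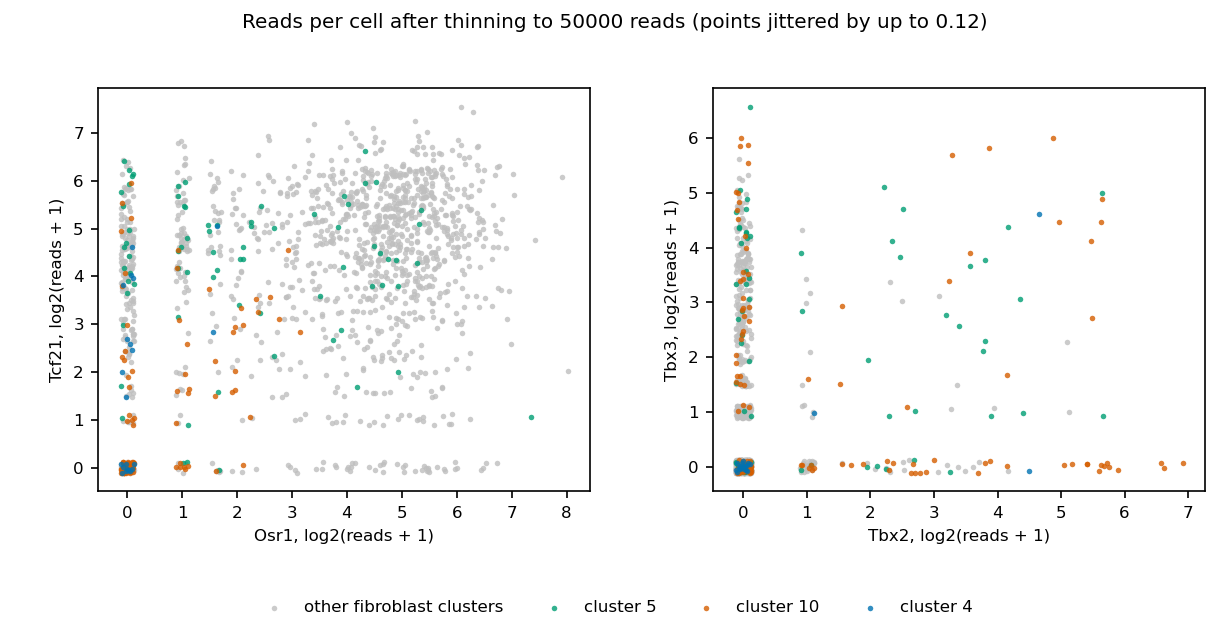
Reads per cell after thinning to 50000 reads, as log2(reads + 1), for Osr1 against Tcf21 and for Tbx2 against Tbx3, with a jitter of up to 0.12 to part equal values and colours for clusters 4, 5, 10 and the other fibroblasts. Fibroblasts fill the upper right of the Osr1 and Tcf21 plot, and most cells of the Tbx2 and Tbx3 plot lie on an axis.

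Relatives and partners of the members were taken as 6 lists, whose counts stand beside 6.2% of all genes called in cluster 10 and 0.762% in cluster 5. With so few genes in a list, a call is a value of that gene and says nothing of the list. Of the other T-box factors 4 of 14 were expressed enough to test, and none was called in cluster 10 or 5. Of 18 mesodermal helix-loop-helix factors and partners 12 were tested. Hey2 rose in cluster 10 (94.1 ± 55.3 against 1.61 ± 1.26, SD, n = 4; log2 fold change 6.99, SE 1.26, adjusted p = 0.00136), as did Id2, an inhibitor of such factors (207.0 ± 53.4 against 31.1 ± 11.99; log2 fold change 2.61, adjusted p = 0.0241). Heyl, a Notch target like Hey2, fell in cluster 5 (1.10 ± 1.10 against 53.1 ± 8.8, n = 4; log2 fold change -6.33, SE 1.13, adjusted p = 0.0205). The list median was 1.48 in cluster 10 and -1.70 in cluster 5, where all genes had -0.93 and -0.77.

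Of 15 homeobox relatives and cofactors, 12 were tested in cluster 10 and 11 in cluster 5 with no call (medians -2.54 and -1.25), and neither was any of the 4 mesenchymal transition factors called (-1.46 and -0.20). Of 33 other urogenital and visceral mesoderm factors, 22 were tested in cluster 10 and 23 in cluster 5, with 1 call in each, for cluster 10 a smaller share than that of all genes. Myocd, the master coactivator of smooth muscle genes, rose in cluster 10 (267.7 ± 129.6 against 1.49 ± 1.04, n = 4; log2 fold change 7.95, SE 0.99, adjusted p = 2.28e-05). Gata5, a zinc finger factor of heart and gut, rose in cluster 5 (205.0 ± 97.5 against 16.8 ± 7.9, n = 4; log2 fold change 3.45, SE 0.51, adjusted p = 0.00637). The list medians of -2.18 and -0.96 were below those of all genes. Of 6 genes described as repressed by Tbx2 or Tbx3, 4 were tested and 1 was called in cluster 10, where 4.02% of all genes were called as lower. It was Frzb, a secreted Wnt antagonist, which fell (0.640 ± 0.801 against 28.9 ± 11.1, n = 4; log2 fold change -5.83, SE 1.52, adjusted p = 0.0260), with none called in cluster 5 (medians -2.95 and -0.29). In the F test among fibroblast clusters, 6 of the 22 other urogenital factors tested passed, 2 of 10 homeobox relatives, 1 of 12 helix-loop-helix factors, 1 of 4 repressed genes, 0 of 4 T-box factors and 0 of 4 mesenchymal transition factors, beside 6.01% of all genes.

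The genes with the most similar pattern to each member were sought over 29 groups of at least 10 cells of 1 line and cluster, as Pearson's r of log2(level + 1) among 13031 genes. These groups share lines, plates and depth, so r is a description. Osr1 was nearest to Fbln1 (0.964) and Pi16 (0.936), and Tcf21 to Fbln5 (0.888) and Ifi27l2a (0.878). Tbx2 was nearest to Ngb (0.897) and Myh11 (0.843), the heavy chain of smooth muscle myosin, and Tbx3 to Nkx6-2 (0.771) and Enah (0.764). Prrx1 was nearest to Ebf1 (0.821) and Nr4a1 (0.809), Meis1 to Traf3ip2 (0.770) and Stk17b (0.760), and Tbx18 to Greb1l (0.833) and Tnfaip8l3 (0.739). Twist1 was nearest to Hspb8 (0.713) and Caprin2 (0.691), and Osr2 to Zpbp (0.759) and Gm44434 (0.758). Twist2 was nearest to Gm29100 (0.985), the gene that overlaps it on the other strand, and then to Vkorc1l1 (0.737). Among the members themselves r was 0.804 for Osr1 with Tcf21, 0.662 for Tbx2 with Tbx3 and -0.737 for Tbx2 with Osr1. Spearman's rho for these pairs was 0.552, 0.632 and -0.279, so the negative relation was much weaker by ranks.

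RefSeq promoter windows of GRCm38.p6 matched 6 of the 10 members. Those of Tcf21 and Prrx1, the members called in a comparison that had an entry, are printed as the bases upstream of the annotated transcript start, both from the minus strand, 5′ to 3′. The first is chr10:22820175-22820393 and the second chr1:163313711-163313900, with a TAATTA match in capitals.
Tcf21: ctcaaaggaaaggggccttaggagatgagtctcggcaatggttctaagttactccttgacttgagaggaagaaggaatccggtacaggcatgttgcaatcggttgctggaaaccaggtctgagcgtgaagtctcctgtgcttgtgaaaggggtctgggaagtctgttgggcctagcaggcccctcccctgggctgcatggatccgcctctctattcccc
Prrx1: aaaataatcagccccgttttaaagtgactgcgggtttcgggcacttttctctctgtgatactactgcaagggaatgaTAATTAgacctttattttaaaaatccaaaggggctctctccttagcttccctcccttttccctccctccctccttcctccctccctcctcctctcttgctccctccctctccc
Motifs of the members' own families were searched on both strands over 250 bases upstream. The homeodomain letters TAATTA were found in 4.9% of 27025 promoters and in 1 of the 6 members, Prrx1. The E-box CANNTG was in 66.0% of promoters and in 2 members (Tbx18 and Meis1), the T-box letters GGTGTG in 16.2% and 1 member (Meis1), and the Meis letters TGACAG in 4316 promoters and 1 member (Twist2). None of the other motifs contains a whole CANNTG, although matches may share end bases, and a match is a description of letters only.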

How the data were processed

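The authors deposited raw counts, whole numbers of reads for each of 46517 genes and 92 spike-ins in 1479 cells. Per the study's methods, the authors trimmed reads with trim galore, mapped them with TopHat2 and Bowtie to GRCm38 (mm10), took out what they call doublets with samtools, counted with featureCounts and removed poor cells. The annotation release and strand setting are not given in the sources used here. How removal of reads that start at 1 position, if that was meant, would lower counts of short, strongly expressed genes was not tested. Groups came from the labels, and no column lacked a sample.

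The 10 genes, the lists of related genes and the markers were chosen with earlier results of these data known. Symbols and coordinates came from GENCODE M21 for 46005 identifiers. Every member is named. For each member the text names the 2 other genes with the highest Pearson r of log2(reads per 500000 + 1) over groups of at least 10 cells, among genes reaching 10 reads per 500000 in a group, and from each list the called genes, at most 6 by fold.

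Counts were summed per mouse line and class of cells, with at least 3 cells in both classes, because cells of 1 line share mice and plates. edgeR 4.0.16 in R 4.3.3 (TMM, filterByExpr, quasi-likelihood test, line as a block, Benjamini-Hochberg adjustment over all genes) called genes at an adjusted p under 0.05 whose log2 fold change was at least 2 in size (clusters 10 and 5) or at least 1 (the other clusters). All adjusted p-values in the results are from this test unless another tool is named. DESeq2 1.42.0, limma 3.58.1 (voom), other scaling, filters, sums per plate, thinned counts, no block and each line left out were alternatives. Shares of cells were taken after thinning every cell to 50000 reads, which left out 6 cells, with exact Clopper-Pearson 95% intervals and a floor of 3 counts. Tables and figures were made with Python 3.11.15, numpy 2.4.6, scipy 1.17.1, pandas 2.3.3 and matplotlib 3.10.9. Depth was 50276 to 1446059 reads per cell, so a gene with few reads was often missed in shallow cells.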

Additional observations from a re-analysis of the deposited data

Results flagged for a closer look

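In groups of 4 or 5 mouse lines, a member's level was set apart when 1 line lay far outside the others by Dixon's criterion. This held for 19 of 90 groups. Chance gives about 1 in 20 for normal values, but these groups overlap and many hold lines at or near 0, so the number is not read against it. Levels are reads per 500000, and no explanation was tested.

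PdgfrbGFP was the high line in 9 of these groups. Tbx2 stood at 25.5 in cluster 2 (other lines 0 to 1.46), at 1.43 in cluster 6 (0 to 0.0703) and at 2.70 in cluster 8 (0 to 0.329). Tbx18 stood at 4.62 in cluster 5 (0.154 to 0.697), at 1.76 in cluster 6 (0 to 0.201) and at 2.68 in cluster 10 (0 to 0.0462). Osr2 stood at 0.0849 in cluster 1 and Twist1 at 3.97 there, with every other line at 0, and Osr2 at 4.29 in cluster 7 (0 to 0.0470). This line also had the most cells, and the part of cell number was not tested. In some groups 1 cell held most reads, with 93 of 100 for Tbx2 in cluster 2 and 184 of 192 for Tbx18 in cluster 5. The same held for 68 of 72 for Tbx18 in cluster 10 and 612 of 809 for Osr2 in cluster 7. In cluster 1 the highest cell held 86 of 247 reads for Twist1 and 2 of 6 for Osr2.

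Cspg4dsRED was high for Tbx2 in cluster 5 at 176.8 (17.5 to 41.3) and for Twist1 in cluster 6 at 162.7 (1.56 to 10.4), each with all reads in 1 of 3 cells. PdgfraGFP was high for Tbx3 in cluster 3 at 31.7, with 91 of its 92 reads in 1 cell (other lines 9.92 to 13.5), and for Osr2 in cluster 8 at 122.0 (0.238 to 9.28) and in all fibroblasts outside cluster 5 at 18.7 (0.728 to 2.67), and it was low for Twist2 in cluster 1 at 12.1 (51.5 to 54.2). C57BL6 was high for Prrx1 in cluster 3 at 52.4 (23.6 to 27.7), in cluster 8 at 97.0 (31.3 to 42.9) and over the fibroblasts outside cluster 5 at 43.5 (26.4 to 30.2). The 3 mural cells of C57BL6 were low for Twist2 at 0 (8.43 to 8.88).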

How the results depend on the processing

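Members called in cluster 10 numbered 2 (997 of 16092 genes), against 5 with DESeq2 (3000 genes) and 5 with at least 10 cells per sum (891 of 15383). Leaving out a line gave 2 to 5, the latter without C57BL6, which is the same fit as at least 10 cells per sum. In cluster 5 none was called (123 of 16145 genes), against 4 with DESeq2 (1402 genes), 2 with sums per plate and line (492), thinned cells (337) or limma-voom (445), 1 with no low-count filter (199), with at least 10 cells per sum (207, the same fit as without Cspg4dsRED) or with the median gene at 0 (148), and 0 to 1 with a line left out. For the remaining clusters 1 call became 2 with RLE size factors or no fold threshold and 9 with DESeq2. Genes called per cluster were 1 to 102 in the main fit, 1 to 92 with RLE size factors and 2 to 2201 with DESeq2. Without a fold threshold 90 genes passed in cluster 7, where the second call lay. DESeq2 called Osr2 and Twist1 in cluster 1 (548 genes), Twist1 and Prrx1 in cluster 2 (2201) and Osr2 in cluster 3 (198). It also called Osr1 in cluster 4 (104), Tbx18 in cluster 6 (472) and Osr1 and Twist1 in cluster 7 (813). With sums per plate, at least 10 cells per sum or a line left out the count of members was 0 (0 to 0). Some clusters could not be fitted there, among them cluster 4, which held the call of the main fit, so that call was not tested again. The F test passed 3 members (916 genes), 6 with DESeq2 (1373), 5 with sums per plate (1813) and 2 to 3 with a line left out. Without the line as a block, these 4 counts were 3 (1474 genes), 2 (340), 0 and 5 (1866). The labels give no replicate number. The line was the block, and cells of different clusters also share plates, which the sums per plate and line take up.

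Osr2 in cluster 10 turned from 0.24 to -2.49 with sums per plate, -2.89 without Acta2GFP and -2.97 without Cspg4dsRED (range with a line left out -2.97 to 2.10), and Tcf21 in cluster 5 from 0.16 to -0.04 with sums per plate, -0.19 with thinned cells and -0.08 with limma-voom. The other 264 log2 fold changes of members kept their sign in clusters 10 and 5. The highest cluster stayed the same for 4 of 10 members when reads of all cells were pooled, and the highest line for 4 of 10 in cluster 3 alone. Of the 20 most similar genes, Spearman's rho kept 7 and PdgfrbGFP groups alone 1. The causes were not tested. C57BL6 had 3 mural cells and Cspg4dsRED 3 cells of cluster 5, which limits what these lines can show.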
